A study of Mus musculus with 20 samples.

Results

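Metallothioneins and genes that respond to glucocorticoids were followed in liver and kidney of mice given 7c, a mixture of small molecules used for partial chemical reprogramming. The 6 genes were Mt1, Mt2, Fkbp5, Tsc22d3, Sgk1 and Zbtb16, chosen by name and found by Ensembl identifier among the 57010 genes of the count table. All animals were 12-month-old male UM-HET3 mice, a genetically heterogeneous stock, and no gene was deleted or added in any group. In the 7c group, pumps under the skin delivered repsox, tranylcypromine, DZNep, CHIR99021, forskolin and TTNPB at 0.1 mg/kg/day each and valproate at 1 mg/kg/day over 28 days, and vehicle pumps held the solvent alone, 50% DMSO and 50% PEG300. Messenger RNA was sequenced from 6 livers and 6 kidneys of the 7c group and from 4 livers and 4 kidneys of the vehicle group, which gave 20 libraries. The study took both tissues from the same mice, 6 given 7c and 4 given vehicle. Mice of both groups had surgery and were then housed singly, so that both groups share these conditions, and the hour at which each mouse was killed is not given in the sources used here.

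Metallothioneins are small, cysteine-rich proteins that bind zinc, copper and cadmium. Their genes are induced in liver by metals, through the transcription factor MTF1 at metal response elements, and also by glucocorticoids and by signals of the acute phase response. Glucocorticoids act through a nuclear receptor, encoded by Nr3c1, which binds glucocorticoid response elements in DNA and induces a set of genes in most tissues. Fkbp5 encodes a co-chaperone that lowers the sensitivity of the receptor, Tsc22d3 encodes the leucine zipper protein GILZ, which mediates anti-inflammatory actions of the hormone, Sgk1 encodes a kinase that raises sodium transport in the distal nephron, and Zbtb16 encodes the zinc finger transcription factor PLZF.

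In GENCODE vM39 on GRCm39, the genome build of the counts, all 6 genes are protein-coding. Mt2 lies at chr8:94898819-94900207 and Mt1 at chr8:94905710-94906955, both on the plus strand and 5502 bases apart. Sgk1 lies at chr10:21758083-21875802 on the plus strand, Fkbp5 at chr17:28618058-28737521, Tsc22d3 at chrX:139440091-139501408 and Zbtb16 at chr9:48563141-48748664, the last 3 on the minus strand. Of the exon bases of Mt2, 783 of 950 (82.4%) are shared with Gm45774, an antisense gene of the same count table with 0 to 8 counts per library. Whether the counting used strand, and how it treated reads that fall on 2 genes, is not given in the sources used here. Without strand, reads of Mt2 and of its antisense partner could not be told apart. Counts of Mt2 may then be too low, and its level is uncertain. The exons of Fkbp5 and Sgk1 share at most 8.71% of their bases with any single other gene.

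Stretches before annotated transcript starts of Mt1, Mt2 and Sgk1 are shown because they carry the elements named for both regulators. RefSeq promoter windows on GRCm38.p6 were given for 5 of the 6 members, 12 windows in all, and each printed stretch also occurs once in GRCm39. The 250 bases before each start were searched on both strands for the core of the metal response element (TGCACNC or TGCGCNC), for the receptor hexamer TGTTCT, and for the full glucocorticoid response element, here the hexamer and its inverted copy 3 bases apart. Metal response element cores are in capitals in the first 2 sequences and the full glucocorticoid response element in the last, and the stretches of Mt1 (chr8:94178839-94179081, plus strand) and Mt2 (chr8:94172368-94172503, plus strand) end where annotated exons of those genes begin. The stretch of Sgk1 (chr10:21993640-21993889, plus strand) precedes 1 of its 6 starts in the RefSeq table. By exact match to GRCm39 the stretch of Mt1 ends at the base before the gene (chr8:94905467-94905709), with 3 of its 4 transcripts starting at the next base and 1 starting downstream. Bases beyond the 250 of the window, toward that downstream start, were not searched. That of Mt2 (chr8:94898996-94899131) lies inside the gene as annotated, with 6 of its 10 transcripts starting at the next base and 2 starting upstream. That of Sgk1 (chr10:21869539-21869788) also lies inside the gene, where 7 of 23 transcripts start upstream, and neither overlaps an exon of its gene.
Mt1: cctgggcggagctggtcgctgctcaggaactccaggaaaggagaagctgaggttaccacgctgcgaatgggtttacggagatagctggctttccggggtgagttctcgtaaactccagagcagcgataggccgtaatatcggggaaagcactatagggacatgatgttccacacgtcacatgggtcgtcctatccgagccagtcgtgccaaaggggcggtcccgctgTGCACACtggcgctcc
Mt2: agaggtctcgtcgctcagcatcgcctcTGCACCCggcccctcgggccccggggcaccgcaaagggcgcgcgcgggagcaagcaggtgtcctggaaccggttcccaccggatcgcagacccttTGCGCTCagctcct
Sgk1: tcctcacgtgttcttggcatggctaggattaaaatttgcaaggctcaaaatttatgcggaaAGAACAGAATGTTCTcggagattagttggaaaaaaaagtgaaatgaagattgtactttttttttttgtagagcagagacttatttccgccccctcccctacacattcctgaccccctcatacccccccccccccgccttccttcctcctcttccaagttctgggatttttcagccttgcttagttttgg
The window of Mt2 held 3 cores, 2 of them in the printed stretch, and that of Mt1 held 1. Of 32817 promoter windows in the table, 21.4% held at least 1 core and 1.26% held at least 3. The full glucocorticoid response element occurred in 3 of the 32817 windows (0.00914%), of which 1 was the window of Sgk1 shown. The hexamer occurred in 16.1% of all windows, and among members in 3 windows of Sgk1 and 1 window of Tsc22d3. It occurred in none of the windows of Mt1, Mt2 and Fkbp5. The hexamer and the full element overlap by construction, and a match is a description of letters in these windows.

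Total counts ranged from 28383359 to 34153084 per liver library and from 27855849 to 64872451 per kidney library. Depth separated the groups in liver, with at most 30571119 counts in 7c libraries and at least 31670440 in vehicle libraries, while the kidney groups overlapped, and the part of depth in the liver values was not tested. All 7 hepatocyte markers were higher in liver (6 of 7 with scaling by the total count alone) and all 8 markers of kidney epithelium were higher in kidney, and their sums separated the tissues in all 20 libraries. In 1 library, 7c liver replicate 6, the 5 markers of skeletal muscle summed to 606 CPM (counts relative to the TMM-scaled library total), against at most 1.79 CPM in the other 9 livers. The 7 adipocyte markers summed to 58.5 to 154 CPM in the 6 kidneys of 7c mice and to 37.4 to 49.6 CPM in the 4 kidneys of vehicle mice, and all 7 had an unadjusted p under 0.05 there while 0 passed the adjusted threshold. Of the 7 hepatocyte markers in kidney, 3 had an unadjusted p under 0.05 and 0 passed, all 3 lower in 7c, with log2 fold changes of -1.08 for Alb, -1.73 for Apoa1 and -2.99 for Cps1 (unadjusted p = 0.00541, 0.00839 and 0.00195 in the quasi-likelihood test). The sum of the 7 overlapped between the groups, at 3298 to 5082 CPM in 7c and 3177 to 5131 CPM in vehicle, and the part of either marker list in the kidney values was not tested. The libraries also differed in the balance of short and long transcripts, described by a length index, the mean log2 deviation of genes with short transcripts (lowest quartile of length) minus that of genes with long ones (highest quartile), with the members left out. In kidney it ranged from -0.33 to 0.43, and 28.5% of tested genes correlated with it at an absolute r over 0.8, against 2.32% in liver. In bulk tissue, fewer cells of a type and less RNA per cell cannot be told apart.

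The members fell into different orders in the 2 tissues. Levels between genes were compared per length, as RPKM, the CPM divided by the exon length in kilobases, scaled over the 20 libraries. That length joins the exons of all annotated transcripts of a gene, 1246 bases for Mt1 and 11066 for Fkbp5. The order of the members within a tissue therefore also depends on the annotation. In liver the highest were Tsc22d3, with 22.5 ± 7.30 RPKM (SD, n = 10), and Mt1, with 18.3 ± 20.4 RPKM. Sgk1 followed with 3.68 ± 1.51 RPKM, then Fkbp5 with 1.83 ± 0.487 RPKM, Zbtb16 with 1.46 ± 1.14 RPKM and Mt2 with 0.452 ± 0.641 RPKM. The ranges of all neighbours in this liver order overlapped, although Mt1 was above Sgk1 in 10 of 10 libraries. In kidney Mt1 was highest, with 55.3 ± 26.6 RPKM (SD, n = 10), and its range did not overlap that of Fkbp5, with 7.39 ± 2.34 RPKM. Sgk1 (4.68 ± 1.10 RPKM) and Tsc22d3 (4.20 ± 1.51 RPKM) were close to each other, with Sgk1 higher in 8 of 10 kidneys. Mt2 (0.855 ± 0.558 RPKM) and Zbtb16 (0.339 ± 0.334 RPKM) were lowest, and their ranges overlapped. The place of Mt2 in both orders is limited by its exon overlap with Gm45774.

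**Figure D1:**
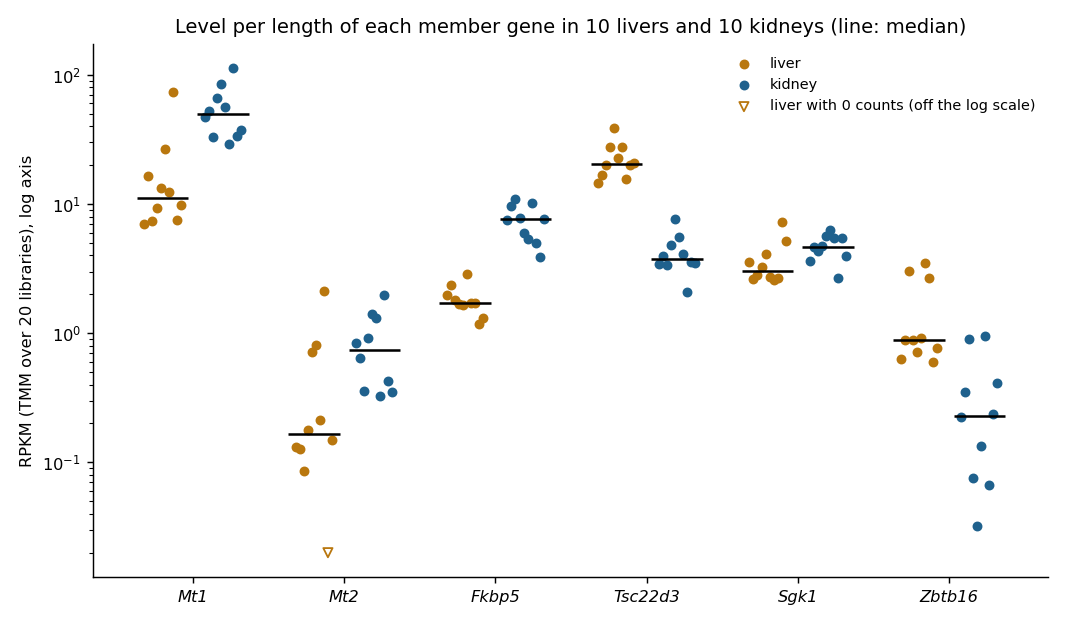
Level of each member gene (y axis, RPKM scaled over 20 libraries, log axis) in 10 livers and 10 kidneys, with 1 point per library and a line at the median. Fkbp5 was lower in every liver than in any kidney, Tsc22d3 was higher in every liver than in any kidney, and 1 liver with 0 counts of Mt2 is drawn as an open triangle below the scale.

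Which members differ between the tissues was asked with all 20 libraries, and 4 of the 6 passed the test, against 72.4% of the 16907 genes tested, so that this count is close to the share of all genes. This fit took the libraries as independent, although both tissues came from the same mice. With same-numbered livers and kidneys as a block, 5 of the 6 passed, against 71.2% of genes. Tsc22d3 ranged from 14.5 to 39.0 RPKM in livers with a median of 20.4, and from 2.08 to 7.60 RPKM in kidneys with a median of 3.75. It was 5.56-fold higher in liver, with a log2 difference of 2.48 (SE 0.20, adjusted p = 2.08e-10), and every liver was above every kidney. Zbtb16 ranged from 0.598 to 3.50 RPKM in livers with a median of 0.884, and from 0.0322 to 0.958 RPKM in kidneys with a median of 0.229. It was 4.31-fold higher in liver, with a log2 difference of 2.11 (SE 0.54, adjusted p = 0.00157), and only 3 of the 10 livers were above every kidney. Fkbp5 ranged from 1.18 to 2.87 RPKM in livers with a median of 1.72, and from 3.86 to 10.8 RPKM in kidneys with a median of 7.63. It was 4.15-fold higher in kidney, with a log2 difference of -2.05 (SE 0.18, adjusted p = 7.48e-10), and every liver was below every kidney.

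The metallothioneins were less even. Mt1 ranged from 6.97 to 73.8 RPKM in livers with a median of 11.1, and from 28.9 to 112 RPKM in kidneys with a median of 50.0. It was 2.96-fold higher in kidney, with a log2 difference of -1.57 (SE 0.39, adjusted p = 0.00124), and 9 of the 10 livers lay below every kidney. In the vehicle libraries alone the log2 difference of Mt1 was -1.03 and did not pass (adjusted p = 0.252). Mt2 ranged from 0 to 2.10 RPKM in livers with a median of 0.165, and from 0.328 to 1.99 RPKM in kidneys with a median of 0.739. The log2 difference of Mt2 was -0.87 (SE 0.62, adjusted p = 0.211). With same-numbered livers and kidneys taken as a replicate block, it was -1.45 and passed (adjusted p = 0.0152), without vehicle replicate 2 it was -1.50 (adjusted p = 0.0207), and with limma-voom it was -1.65 (adjusted p = 0.0234). Sgk1 did not pass, with medians of 3.03 RPKM in livers and 4.68 RPKM in kidneys and a log2 difference of -0.30 (SE 0.18, adjusted p = 0.142, 95% confidence interval -0.68 to 0.08). Without vehicle replicate 1 the difference of Sgk1 was -0.15, without vehicle replicate 3 it was -0.41 and passed (adjusted p = 0.0388), and in the vehicle libraries alone it was 0.018. Scaling by the total count alone moved the median log2 difference of all genes from -0.06 to -0.68, and Mt2 and Sgk1 then passed as well (adjusted p = 0.0316 and 1.75e-04).

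Genes of hormone and zinc handling were compared between the tissues in the same fit. Of 13 genes of the receptor machinery, 7 were higher in liver and 1 was higher in kidney, against 5919 and 6328 of all 16907 genes. That order depends on the scaling, since with scaling by the total count alone 2 were higher in liver and 6 in kidney, against 2935 and 10320 of all genes. Nr3c1, the receptor itself, had 9.62 ± 0.734 RPKM in liver and 5.63 ± 1.30 RPKM in kidney, a log2 difference of 0.75 (SE 0.11, adjusted p = 2.59e-06), which was 0.10 and did not pass when only the total count was used for scaling (adjusted p = 0.457). Hsd11b1, the enzyme that regenerates active glucocorticoid from its inert form, had 188 ± 25.3 RPKM in liver and 17.3 ± 5.13 RPKM in kidney (log2 difference 3.45, SE 0.16, adjusted p = 1.77e-14). Hsd11b2, which inactivates the hormone and so protects the mineralocorticoid receptor, had 0 counts in all 10 livers and 65.8 ± 10.8 RPKM in kidney. Serpina6, the corticosteroid-binding globulin of plasma, had 102 ± 20.9 RPKM in liver and 0.0274 ± 0.0261 RPKM in kidney. Of 12 tested genes of the zinc and metallothionein list, 7 were higher in liver and 3 in kidney, and 5 and 5 with the total count alone. The zinc importers Slc39a14 and Slc39a4 were higher in liver by 2.73 (SE 0.13, adjusted p = 1.42e-14) and 7.97 (SE 0.37, adjusted p = 1.51e-14) on the log2 scale. Of the same family, Slc39a1 and Slc39a7 were higher in liver by 1.04 and 1.25, and Slc39a8 did not pass (0.003, adjusted p = 0.980). Slc39a10 was higher in kidney (-1.96, SE 0.20, adjusted p = 1.31e-08), as were Slc30a5 (-0.48) and Mt3 (-8.12), which had 0 RPKM in liver and 0.681 RPKM in kidney. Mtf1, which binds the metal response element, had a log2 difference of 0.42 (SE 0.10, adjusted p = 9.34e-04), which turned to -0.22 under scaling by the total count alone. Of 10 genes of the Sgk1 family and its targets, 1 was higher in liver and 7 in kidney, and of 25 other genes induced by glucocorticoids the counts were 13 and 6. Of 13 acute phase genes 12 were higher in liver and 0 in kidney, and of 13 clock genes 5 and 2. With the total count alone these counts were 1 and 9 for the Sgk1 family, 9 and 10 for the genes induced by glucocorticoids, 12 and 0 for the acute phase and 3 and 5 for the clock genes. With same-numbered livers and kidneys as a replicate block, 5 clock genes were higher in liver and 6 in kidney, and in the vehicle libraries alone 5 and 5. For the genes induced by glucocorticoids these counts were 11 and 8 with the block and 9 and 5 in the vehicle libraries alone.

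The study treated these mice to ask about markers of ageing, and for the members the comparison is that of 7c with vehicle, in which none passed the test in either tissue. With edgeR's quasi-likelihood test, 0 of 5 tested members passed in liver (0.00666% of 15012 genes did) and 0 of 6 in kidney (0% of 17749 genes did). Mt2 reached 10 counts in 3 of the 10 livers, fewer than the filter asks, and was not tested there. At an unadjusted p under 0.05, 1 member remained in liver, Fkbp5, and 0 in kidney, and DESeq2, the likelihood ratio test of edgeR and limma-voom also called 0 members in both tissues. Over all genes, 565 in liver and 463 in kidney had an unadjusted p under 0.05, and in kidney DESeq2 called 18 genes, the likelihood ratio test 14 and limma-voom 2. Below, expression within a tissue is in CPM scaled over the 10 libraries of that tissue, and fold changes are log2 of 7c over vehicle.

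**Figure D2:**
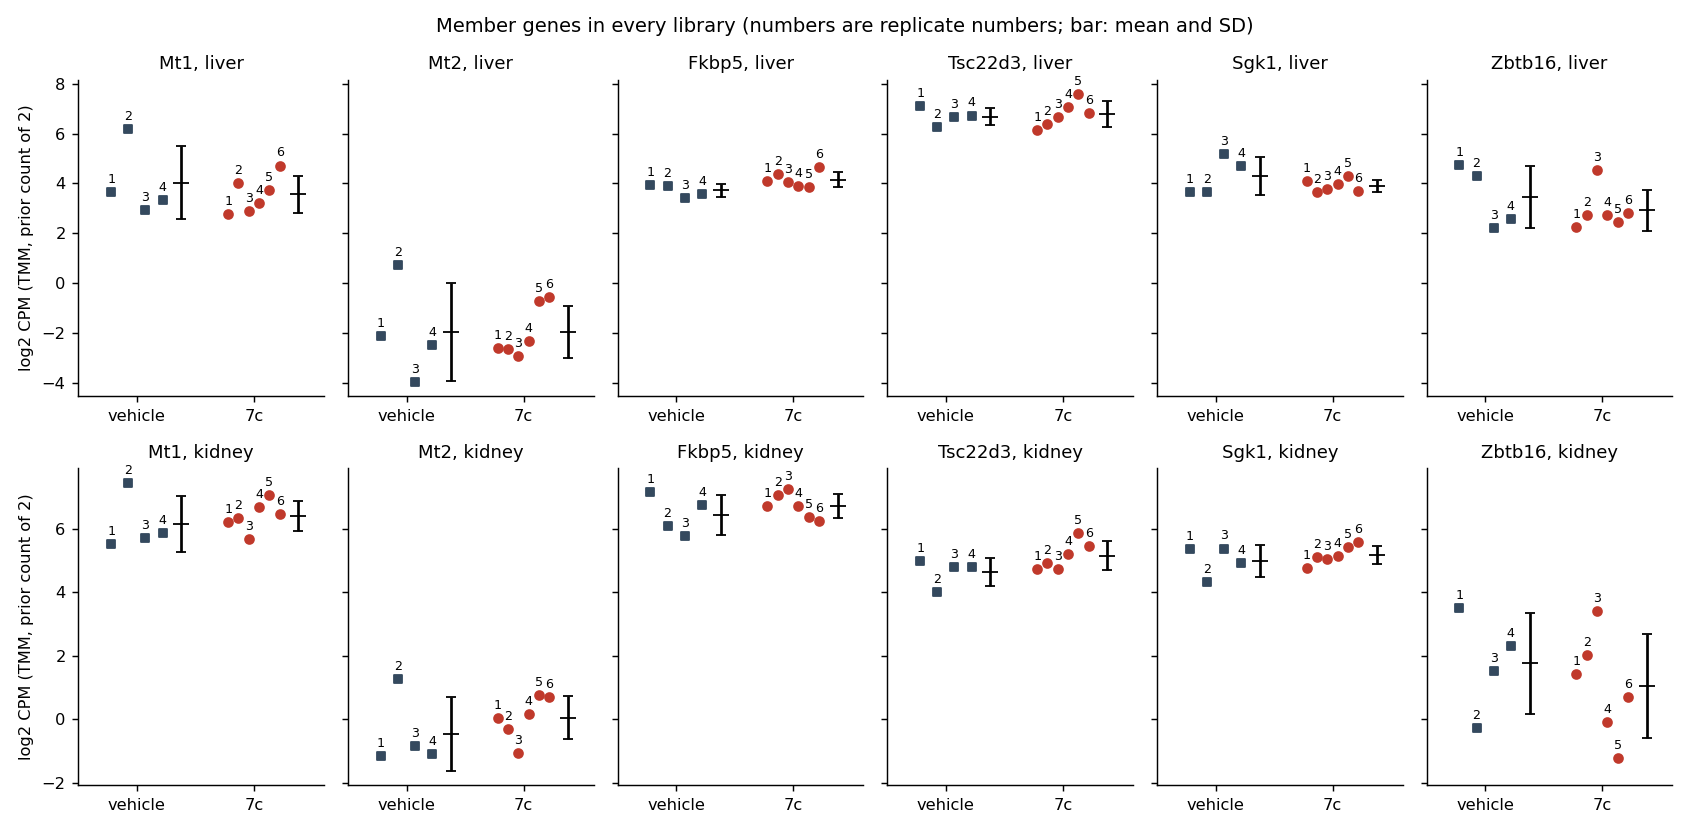
Expression of each member gene in every library (y axis, log2 CPM with a prior count of 2), with liver in the upper row and kidney in the lower row. Points are libraries with their replicate numbers and the bar gives mean and SD of the group, and in both tissues vehicle replicate 2 was the highest library for Mt1 and Mt2.

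Mt1 was set apart by a single replicate number. In vehicle livers it was at 12.5, 72.5, 7.67 and 9.94 CPM in replicates 1 to 4, and in 7c livers it ranged from 6.82 to 26.3 CPM with a median of 11.2. Replicate 2 of vehicle was the highest, 4 of 6 livers of 7c mice lay inside the vehicle range and 2 lay below it. The log2 fold change was -0.96 (SE 0.57, adjusted p = 1.00), and without vehicle replicate 2 it was 0.40 (SE 0.38). In vehicle kidneys Mt1 was at 45.4, 173, 52.5 and 58.1 CPM, and in 7c kidneys it ranged from 51.3 to 133 CPM with a median of 84.6. Again replicate 2 of vehicle was the highest, and all 6 kidneys of 7c mice lay inside the vehicle range. Its log2 fold change was 0.09 (SE 0.36, adjusted p = 0.997), and without vehicle replicate 2 it was 0.76 (SE 0.24), with an unadjusted p of 0.00724 and an adjusted p of 0.476. Mt1 varied more than most genes, with a coefficient of variation of 110% in liver, above that of 99.4% of tested genes, and of 47.7% in kidney, above that of 82.9%. Without vehicle replicate 2 the liver value was 50.5%, above that of 82.8% of tested genes.

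Mt2 followed the same library. It had 5, 55, 0 and 4 counts in vehicle livers and 2 to 17 counts in 7c livers, so that livers give 0 to 1.58 CPM. The vehicle liver with 0 counts allows up to 0.0853 CPM (3 counts), or up to 0.171 CPM (6 counts) where 1 fragment adds 2 counts, and counts were even in 20 of 20 libraries for Mt1 but in 7 of 20 for Mt2. Both limits cover counting error only. In vehicle kidneys Mt2 was at 0.392, 2.34, 0.508 and 0.419 CPM and in 7c kidneys it ranged from 0.428 to 1.66 CPM with a median of 1.02. Vehicle replicate 2 was the highest kidney and all 6 kidneys of 7c mice lay inside the vehicle range. Its log2 fold change in kidney was 0.23 (SE 0.56, adjusted p = 0.997), and without vehicle replicate 2 it was 1.28 (SE 0.46), with an unadjusted p of 0.0158 and an adjusted p of 0.476. Per 100 counts of Mt1 there were 0 to 4.12 counts of Mt2 in livers and 0.721 to 1.76 in kidneys. These ratios share the uncertainty of the Mt2 level from its overlap with Gm45774. The log2 ratio of Mt2 to Mt1, with 0.5 added to each count, was -5.91 ± 0.90 in 7c livers (SD, n = 6) and -6.74 ± 1.59 in vehicle livers (n = 4). In kidney it was -6.41 ± 0.38 and -6.68 ± 0.36. The differences of 0.83 and 0.27 did not pass (exact permutation test over 210 splits, two-sided, p = 0.381 and 0.305, smallest possible p 0.00952). The liver value rests on vehicle replicate 3, whose ratio with 0 counts of Mt2 is set by the added 0.5, and without it the difference was 0.05.

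Fkbp5 had the smallest unadjusted p of the members in liver. It was at 15.3, 15.01, 10.7 and 11.9 CPM in vehicle livers, and in 7c livers it ranged from 14.5 to 25.3 CPM with a median of 16.8. Of the 6 livers of 7c mice, 4 were above all vehicle livers and the other 2 were inside their range. The log2 fold change was 0.45 (SE 0.17, 95% confidence interval 0.08 to 0.83), with an unadjusted p of 0.0212, rank 213 of 15012, and an adjusted p of 1.00. The highest liver was 7c replicate 6, the library with the skeletal muscle transcripts, and without it the fold change was 0.34. In kidney Fkbp5 was at 141, 68.0, 53.8 and 107 CPM in vehicle and from 74.8 to 151 CPM, with a median of 104, in 7c. Of the 6 kidneys of 7c mice, 1 was above the vehicle range and 5 were inside it, with a log2 fold change of 0.22 (SE 0.27, adjusted p = 0.997). Leaving out vehicle replicate 3 gave 0.03 and leaving out vehicle replicate 1 gave 0.50.

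Tsc22d3 had the smallest unadjusted p of the members in kidney. It was at 31.7, 16.0, 27.7 and 27.3 CPM in vehicle kidneys, and in 7c kidneys it ranged from 26.4 to 58.5 CPM with a median of 33.5. Of the 6 kidneys of 7c mice, 3 were above the vehicle range and 3 were inside it. Its log2 fold change was 0.52 (SE 0.25, 95% confidence interval -0.02 to 1.06), with an unadjusted p of 0.0564 and an adjusted p of 0.997. The highest kidney was 7c replicate 5, which also had the highest sum of adipocyte markers (154 CPM) and the highest length index (0.43), and without it the fold change was 0.35. With the length index as a covariate, added after the data were seen, it was 0.50 (SE 0.26). In liver Tsc22d3 was at 137, 75.8, 102 and 106 CPM in vehicle and from 70.4 to 192 CPM, with a median of 107, in 7c. The groups overlapped, with 4 of 6 livers of 7c mice inside the vehicle range, and the log2 fold change was 0.14 (SE 0.24, adjusted p = 1.00). It turned to -0.062 without 7c replicate 5 and was 0.29 without vehicle replicate 1.

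Sgk1 had a wide vehicle range in liver. It was at 12.6, 12.7, 35.9 and 25.6 CPM in vehicle livers, and in 7c livers it ranged from 12.6 to 19.5 CPM with a median of 14.7, all 6 inside the vehicle range. Its log2 fold change was -0.51 (SE 0.26, adjusted p = 1.00), and without vehicle replicate 3, the highest liver, it was -0.15. In kidney Sgk1 was at 41.1, 19.7, 41.4 and 29.9 CPM in vehicle and from 26.8 to 47.8 CPM, with a median of 34.6, in 7c. There 2 of 6 kidneys of 7c mice were above the vehicle range and 4 inside it, with a log2 fold change of 0.14 (SE 0.21, adjusted p = 0.997). It turned to -0.031 without vehicle replicate 2, the lowest kidney, and was 0.27 without vehicle replicate 3.

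Zbtb16 was divided between libraries rather than groups. It was at 26.5, 19.8, 4.60 and 5.88 CPM in vehicle livers, and in 7c livers it ranged from 4.69 to 23.4 CPM with a median of 6.61. Of the 10 livers, 3 were at 19.8 CPM or more, vehicle replicates 1 and 2 and 7c replicate 3, and the other 7 were at 6.89 CPM or less. The log2 fold change was -0.67 (SE 0.53, adjusted p = 1.00), and it was -1.23 without 7c replicate 3 and -0.18 without vehicle replicate 1. In kidney Zbtb16 was at 11.3, 0.780, 2.78 and 4.89 CPM in vehicle and from 0.376 to 10.6 CPM, with a median of 2.09, in 7c. The 2 highest kidneys, vehicle replicate 1 and 7c replicate 3, carried numbers that were also high in liver, while vehicle replicate 2, high in liver, was among the lowest kidneys. The log2 fold change in kidney was -0.56 (SE 0.80, adjusted p = 0.997), and it was -1.38 without 7c replicate 3 and 0.25 without vehicle replicate 1. The coefficient of variation of Zbtb16 was 78.0% in liver and 99.2% in kidney, above that of 96.0% and 99.0% of tested genes.

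**Figure D3:**
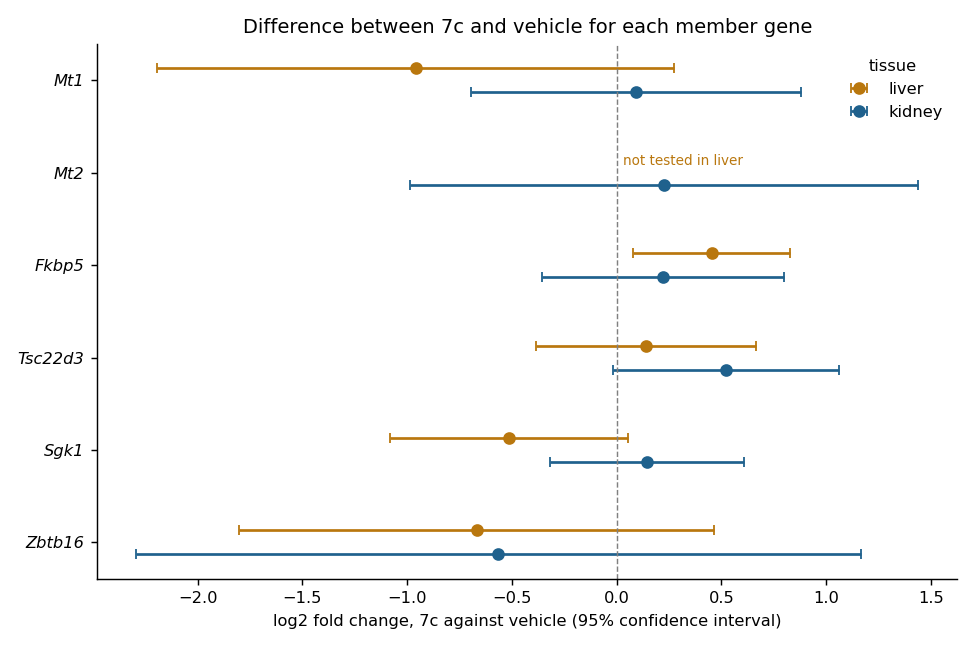
Log2 fold change of 7c over vehicle for each member gene (x axis) with its 95% confidence interval, in liver and kidney. The interval of Fkbp5 in liver, 0.08 to 0.83, is the only one that leaves out 0, before adjustment over all genes, and Mt2 was not tested in liver.

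Whether the response to 7c differed between the tissues was tested with an interaction term. It passed for 0 of 5 members, against 0.00706% of 14163 genes, and 0 of 5 had an unadjusted p under 0.05, with DESeq2 and limma-voom also calling 0 members. That fit too took the libraries as independent. With same-numbered livers and kidneys as a block, 0 of 5 passed and 1 had an unadjusted p under 0.05. The difference farthest from 0 was that of Mt1, -1.06 (SE 0.76, adjusted p = 1.00), which was -0.35 without vehicle replicate 2. The smallest unadjusted p was that of Sgk1, 0.0797, with a difference of -0.67 (SE 0.36, 95% confidence interval -1.43 to 0.09).

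Members were next compared with each other across the 10 libraries of a tissue, in 30 pairs, and between same-numbered livers and kidneys, in 6 relations, with log2 CPM, permutation tests and p-values adjusted over these 36 relations. In kidney Mt1 and Mt2 varied together (r = 0.95, rho = 0.94, adjusted permutation p = 0.0036 and 0.0042). Zbtb16 ran opposite to both, with r = -0.89 and rho = -0.93 against Mt1 (adjusted permutation p = 0.0146 and 0.0042) and r = -0.88 and rho = -0.95 against Mt2 (adjusted permutation p = 0.0154 and 0.0042). Without the 2 libraries farthest from the median these 3 values of r were 0.89, -0.86 and -0.84. Over the 8 libraries that remained, 0 of the 36 relations passed after adjustment, so that the calls here rest on all 10 libraries. All 3 genes followed the length index of the kidney libraries, with r = 0.91 for Mt1, 0.81 for Mt2 and -0.82 for Zbtb16, where points share the library and 28.5% of all tested genes passed an absolute r of 0.8. With the index removed from each gene, an alternative added after the data were seen, Mt1 and Mt2 kept r = 0.86 (adjusted permutation p = 0.0126). Mt1 and Zbtb16 then had r = -0.59 (adjusted permutation p = 0.241) and Mt2 and Zbtb16 r = -0.63 (adjusted permutation p = 0.205). Fkbp5 and Zbtb16 in kidney, with r = 0.63 (adjusted permutation p = 0.185), passed with the index removed (r = 0.80, adjusted permutation p = 0.041) and with treatment means removed (r = 0.76, adjusted permutation p = 0.0452). With the index as a covariate of the test, the SE of the fold change of Mt1 in kidney was 0.15 in place of 0.36, and the fold change was 0.06.

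**Figure D4:**
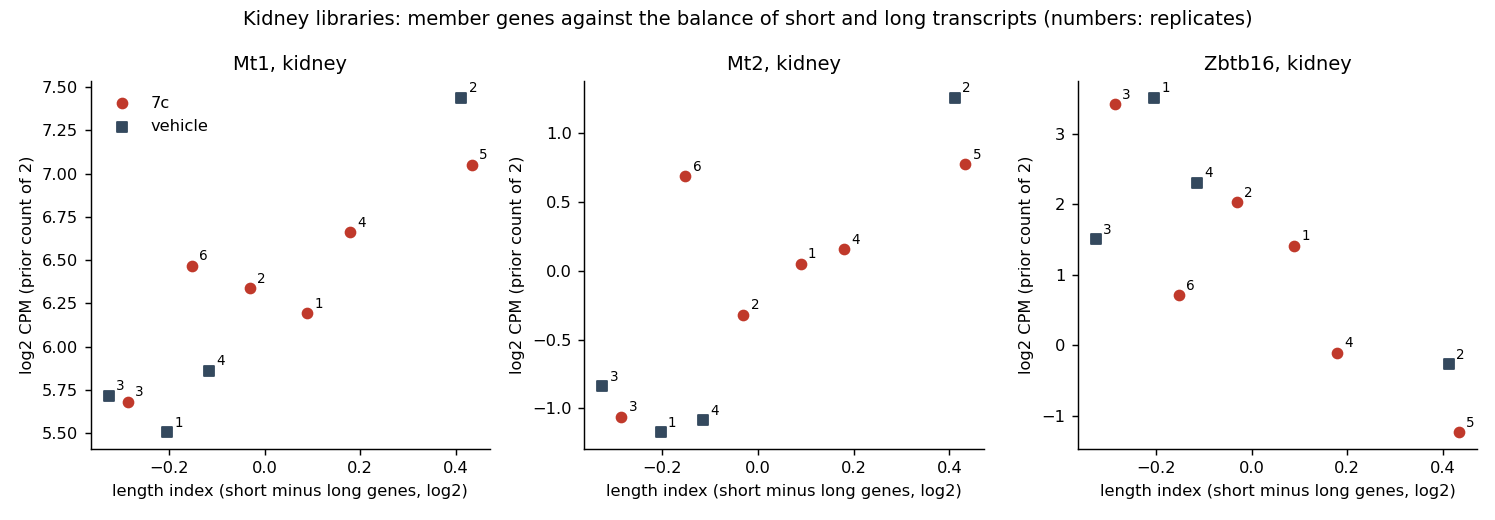
Log2 CPM (y axes) of Mt1, Mt2 and Zbtb16 in the 10 kidney libraries against the length index of each library (x axes, log2), with replicate numbers beside the points. Mt1 and Mt2 were high and Zbtb16 was low in vehicle replicate 2 and 7c replicate 5, the 2 libraries with the highest index, 0.41 and 0.43.

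Tsc22d3 and Sgk1 also varied together in kidney, with r = 0.82 and rho = 0.87 (adjusted permutation p = 0.0257 and 0.0177). Without the 2 libraries farthest from the median r was 0.69, and with the length index removed it was 0.95. Both were lowest in vehicle replicate 2 and highest in 7c replicates 5 and 6. In liver the same pair had r = 0.12 (adjusted permutation p = 0.922). Tsc22d3 was related between same-numbered livers and kidneys as well, with r = 0.80 and rho = 0.82 (adjusted permutation p = 0.0336 and 0.0362), and r = 0.72 without the 2 libraries farthest from the median. Within the 6 pairs of 7c r was 0.88. Mt2 had r = 0.82 between same-numbered livers and kidneys (adjusted permutation p = 0.0186), but rho = 0.60 did not pass (adjusted permutation p = 0.241) and r was 0.44 with the length index removed. Mt1 had r = 0.69 (adjusted permutation p = 0.0874), r = 0.78 with treatment means removed, which passed (adjusted permutation p = 0.0393), and r = 0.34 without the 2 libraries farthest from the median. For Fkbp5 and Sgk1 the values were 0.26 and 0.17.

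**Figure D5:**
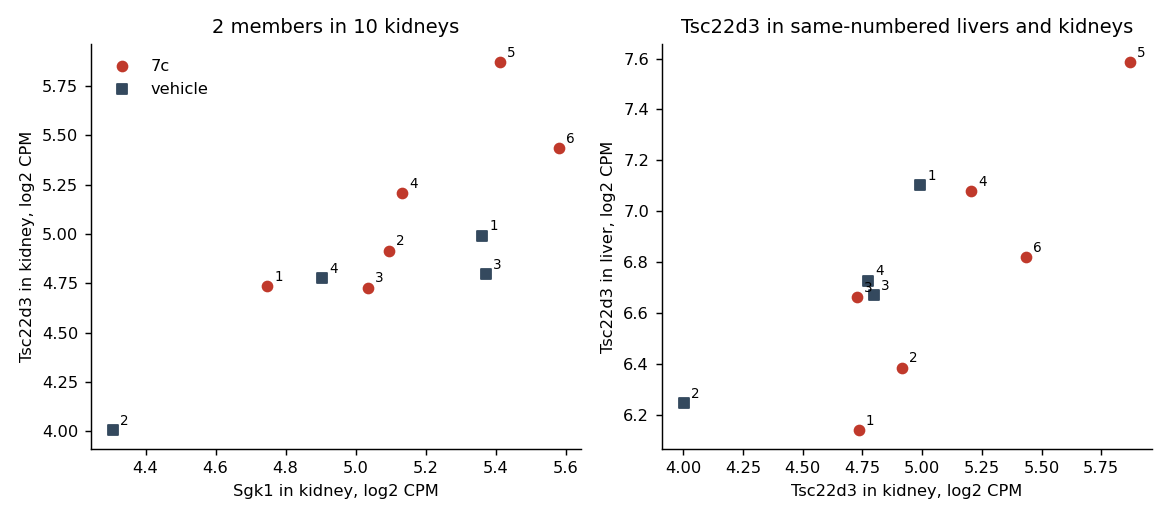
Left, log2 CPM of Tsc22d3 (y axis) against Sgk1 (x axis) in 10 kidneys, and right, log2 CPM of Tsc22d3 in liver (y axis) against kidney (x axis) of the same treatment and replicate number. Points are libraries with replicate numbers, with r = 0.82 on the left and 0.80 on the right.

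In liver the relation of Mt1 to Mt2 had r = 0.87 (adjusted permutation p = 0.0166), with rho = 0.73 (adjusted permutation p = 0.105). It rests on the 2 libraries farthest from the median, without which r was 0.54. Fkbp5 and Sgk1 ran opposite to each other in liver, with r = -0.77 (adjusted permutation p = 0.0463) and rho = -0.68 (adjusted permutation p = 0.137), and r was -0.70 without the 2 libraries farthest from the median. That relation lay close to the threshold. It passed with a prior count of 0.5 (r = -0.77, adjusted permutation p = 0.0479) and did not pass with RLE size factors, with the treatment means removed or with the length index removed (adjusted permutation p = 0.0517, 0.0515 and 0.0749), where r was -0.76, -0.73 and -0.76. Zbtb16 in liver lay in separate ranges of 3 and 7 livers, so that no pooled r is given for it there or between the tissues. By rank, Sgk1 and Zbtb16 ran opposite to each other over all 10 livers (rho = -0.84, adjusted permutation p = 0.0283). Within the 7 livers of the lower range, an alternative added after the data were seen, that relation had rho = -0.82 and r = -0.70 and did not pass (exact permutation test, p adjusted over 5 members = 0.0853 and 0.249), and neither did that of any other member with Zbtb16.

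The genes whose pattern was most like that of a member, by r of log2 CPM across the 10 libraries of a tissue, are given as a description. In kidney Mt1 was most like Cln3, Selenow and Oxld1 (r = 0.98 each), Mt2 most like Ifitm1, Ier5l and Krt15 (r = 0.97, 0.97 and 0.96), and Zbtb16 most like Ctns, Ubqln1 and Ddhd1 (r = 0.97 each). Tsc22d3 was most like Vasn, Zfp58 and Usp2 (r = 0.95, 0.95 and 0.94), of which Usp2 is itself a gene induced by glucocorticoids and by the circadian clock. Per1, a clock gene held here in the list of genes induced by glucocorticoids, came at rank 5 for Tsc22d3 in kidney (r = 0.92), and Per2, of the clock list, came at rank 5 for Sgk1 (r = 0.89), both named after their values were seen. Of the 13 genes of the clock list, 9 had r above 0 with Tsc22d3 in kidney, from -0.73 for Npas2 to 0.71 for Tef with a median of 0.50, against a median of 0.02 over all other genes tested. With Sgk1 in kidney, 9 of 13 had r above 0, from -0.52 for Npas2 to 0.89 for Per2 with a median of 0.42, against 0.01. Fkbp5 in kidney went the other way, with 4 of 13 above 0 and a median of -0.43. The medians of Mt1, Mt2 and Zbtb16 in kidney were -0.21, -0.09 and -0.01. In liver they were 0.43 for Tsc22d3, 0.38 for Mt2, 0.20 for Mt1, 0.04 for Sgk1 and -0.02 for Fkbp5. Per1 ranged from 10.2 to 61.3 CPM over the 10 kidneys and was highest in 7c replicates 5 and 6. Sgk1 was most like Gm13091, Zcchc24 and Dubr (r = 0.95, 0.94 and 0.91), and Fkbp5 most like 1700017B05Rik, Gm6300 and Gm9951 (r = 0.95, 0.93 and 0.92). In liver the leading genes were Gm57253, A730017L22Rik and Trpm7 for Mt1 (r = 0.94, 0.91 and 0.89), Gm28720, Cyp3a13 and St6gal1 for Mt2 (r = 0.92, 0.91 and 0.89), and Rhbg, Efhd2 and E4f1 for Fkbp5 (r = 0.93, 0.90 and 0.90). They were Rasgef1b, Srp72 and Ralgps2 for Tsc22d3 (r = 0.88, 0.87 and 0.87) and Nosip, Tcf24 and Ktn1 for Sgk1 (r = 0.94, 0.92 and 0.89). None are given for Zbtb16 in liver, for its separate ranges. Of the other 5 members, none shared a leading gene between liver and kidney.

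No gene of the pathway lists passed the test of 7c against vehicle in either tissue. Of 23 tested genes among 25 others induced by glucocorticoids, 0 passed in liver in either direction, with 5 at an unadjusted p under 0.05 and a median log2 fold change of 0.07, against 0.00 over all genes and 3.76% of all genes at that p. Dusp1, a phosphatase that switches off MAP kinases, was at 10.7 ± 2.36 CPM in livers after 7c and 21.0 ± 12.6 CPM after vehicle (log2 fold change -0.96, SE 0.28, unadjusted p = 0.00471, adjusted p = 1.00). The highest liver, vehicle replicate 3, had 39.4 CPM of Dusp1, and without it the fold change was -0.46. Cebpb, a transcription factor of the acute phase, was at 31.7 ± 8.23 and 19.8 ± 7.00 CPM (0.68, SE 0.23, unadjusted p = 0.0106). Lpin1, a phosphatase of lipid synthesis, was at 85.1 ± 66.6 and 35.9 ± 4.41 CPM (1.25, SE 0.48, unadjusted p = 0.0206). In kidney 0 of 24 passed, with 1 at an unadjusted p under 0.05 against 2.61% of all genes tested there. It was Cebpb, at 13.03 ± 2.696 CPM in 7c and 8.90 ± 2.27 CPM in vehicle (0.55, SE 0.21, unadjusted p = 0.0193).

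The counts at an unadjusted p under 0.05 that follow stand against 3.76% of all genes in liver and 2.61% in kidney. Among 12 tested genes of the receptor machinery, 0 passed in liver and 0 in kidney, with 0 and 1 at an unadjusted p under 0.05, and the medians were 0.11 and 0.07. The 1 gene was Hsd11b2 in kidney, at 164 ± 19.9 CPM in 7c and 134 ± 18.4 CPM in vehicle (0.29, SE 0.13, unadjusted p = 0.0406). Of the zinc and metallothionein list, 0 of 11 in liver and 0 of 10 in kidney passed, and none had an unadjusted p under 0.05, with medians of 0.05 and -0.02. Of the Sgk1 family and its targets, 0 of 6 and 0 of 10 passed and again none had an unadjusted p under 0.05. Of 13 genes of the acute phase response in liver, 0 passed and 2 had an unadjusted p under 0.05, led by the siderophore-binding Lcn2, at 2.81 ± 0.936 CPM in 7c and 1.34 ± 0.133 CPM in vehicle (1.07, SE 0.30, unadjusted p = 0.00327). In kidney 0 of 9 acute phase genes passed and 1 had such a p. Of 13 clock genes, 0 passed in either tissue, with 3 in liver at an unadjusted p under 0.05. Dbp, an output gene of the clock, ranged from 0.266 to 93.1 CPM in livers after 7c and from 3.54 to 5.14 CPM after vehicle (2.65, SE 1.16, unadjusted p = 0.0395). Per3 ranged from 1.26 to 30.3 CPM and from 3.03 to 3.71 CPM (1.62, SE 0.75, unadjusted p = 0.0498), and Clock was at 36.2 ± 8.22 and 46.7 ± 3.87 CPM (-0.37, SE 0.15, unadjusted p = 0.0248). For Dbp and Per3 the 7c livers spread on either side of all vehicle livers, and without 7c replicate 6 the fold changes were 1.73 and 0.93. The 7 adrenal markers summed to at most 5.47 CPM in every liver and kidney.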

How the data were processed

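RNA of 10 livers and 10 kidneys (6 7c and 4 vehicle each) was analysed. Per the labels, libraries were made from polyadenylated RNA with a stranded kit, and the submitters' notes name STAR 2.7.11b, featureCounts 2.0.6 and GRCm39. The annotation release and the treatment of reads with several positions are not given in the sources used here. The deposited values are raw counts per gene, neither normalized nor filtered, and of the counts from 1 to 10, 79.0% were even. Symbols, positions and exon lengths came from GENCODE vM39, which matched 56310 of 57010 genes, and promoter windows from RefSeq on GRCm38.p6.

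Following the study, a gene was tested in a tissue when 50% or more of its libraries held 10 or more counts. Counts were TMM-normalized and tested with the quasi-likelihood F-test of edgeR 4.0.16 (R 4.3.3) with treatment as the only term, and with 4 group means for the interaction and for liver against kidney. P-values were adjusted over all genes by Benjamini-Hochberg, with a threshold of 0.05. Correlations were taken on log2 CPM (prior count 2), with two-sided permutation tests with 100000 resamples (scipy 1.17.1). RPKM used the joined length of all annotated exons of each gene. The tests were tested on simulated data. Alternatives were RLE size factors, DESeq2 1.42.0, the likelihood ratio test, limma-voom (limma 3.58.1), other filters, both tissues in 1 fit, a replicate block and leaving out each library, and the length index, scaling by the total count, the lower range of Zbtb16 and the coefficient of variation without 1 library were added after the data were seen.

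The members and the lists were chosen with earlier results of these data known. Named were the 6 members, up to 3 genes per list with the smallest p in a tissue or genes past the threshold, and the 3 genes most like each member. The lists were zinc and metallothionein, receptor machinery, other glucocorticoid-induced, Sgk1 family and targets, acute phase and clock genes, and markers of hepatocytes, kidney epithelium, adrenal, adipocytes, blood, skeletal muscle and pancreas. Each sample is a biological replicate of 1 tissue by its label. Libraries held 27855849 to 64872451 counts, and this depth limits the precision for Mt2, with 0 to 84 counts per library. The exon overlap of Mt2 with Gm45774 makes its level uncertain as well.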

Additional observations from a re-analysis of the deposited data

Results flagged for a closer look

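In groups of 4 to 10 libraries, a library counted as far from the others when its gap to the nearest one, divided by the range of the group, passed Dixon's 95% critical value. Chance passes it in about 1 of 20 independent groups of normally distributed values. The values here were CPM without a log, and groups of different members share libraries, so that rate need not hold. Of 24 groups of members, 6 had such a library. Vehicle replicate 2 stood apart for Mt1 in liver (72.5 CPM, the next 12.5 CPM) and in kidney (173 CPM, the next 58.1 CPM). It also stood apart for Mt2 in liver (1.58 CPM, the next 0.165 CPM) and in kidney (2.34 CPM, the next 0.508 CPM). 7c replicate 3 stood apart for Zbtb16 in liver (23.4 CPM, the next 6.89 CPM) and in kidney (10.6 CPM, the next 4.02 CPM). In kidney, vehicle replicate 2 had the length index next to the highest (0.41) and 7c replicate 3 the index next to the lowest (-0.29), and in liver the same numbers had -0.11 and 0.11. The part of this balance in the 6 values was not tested.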

How the results depend on the processing

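For the 7c comparisons and the interaction, 277 member values were recomputed under the alternatives, of which 0 passed the threshold (lowest adjusted p = 0.476) and 16 had the other sign. Leaving out 1 library at a time, the log2 fold change ranged from -1.27 to 0.40 for Mt1, -0.062 to 0.29 for Tsc22d3, -0.70 to -0.15 for Sgk1 and -1.23 to -0.18 for Zbtb16 in liver. In kidney it ranged from -0.11 to 0.76 for Mt1, -0.028 to 1.28 for Mt2, -0.031 to 0.27 for Sgk1 and -1.38 to 0.25 for Zbtb16, and the interaction of Zbtb16 ranged from -0.44 to 0.46. Over all genes, leaving out 1 library gave 0 to 2 calls in liver, 0 to 3 in kidney and 0 to 6 for the interaction.

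In liver 1 gene was called, against 6 with DESeq2, 7 with the likelihood ratio test, 4 without a filter, 2 with filterByExpr and 4 with both tissues in 1 fit. In kidney 0 were called, against 18 with DESeq2, 14 with the likelihood ratio test, 2 with limma-voom, 3 without a filter, 18 with both tissues in 1 fit and 1 with the length index. For the interaction 1 was called, against 16 with DESeq2 and 0 with limma-voom, where the value of Zbtb16 was 0.17. The cause of these differences was not tested. Sgk1 between the tissues was 0.018 in vehicle libraries alone, and Mtf1 was -0.22 without scaling beyond the total count. Of 6 correlations within a tissue and 2 between tissues, 0 and 0 passed without the 2 libraries farthest from the median, where 8 libraries remained, and 1 of those between tissues passed with the length index removed.

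With the replicate number as a block, 0 genes were called in liver and 0 for the interaction, Tsc22d3 in liver was -0.12, Dbp -1.04, Per3 -0.30 and the interaction of Zbtb16 0.25. Mt2 between the tissues (-1.45) passed with the block, which changed no other call of a member but moved counts of the gene lists between the tissues, for clock genes from 5 and 2 to 5 and 6. The study took livers and kidneys from the same mice, but the numbers are shared by label only. The labels do not state which liver and kidney share a mouse. Livers and kidneys of the same number correlated by 0.01 to 0.26 over 14163 genes, over 0.1 in 7 of 10 pairs. Of these pairs, 8 of 10 correlated best within their own number. Over the 208 most variable genes the values were 0.36 to 0.66 and 10 of 10 correlated best within their own number. That a shared number means a shared mouse is a hint from the data. Same-numbered 7c and vehicle samples are different mice, correlated by -0.05 to 0.03 in liver and by -0.03 to 0.21 in kidney, where 1 of 4 pairs was over 0.1, and 7c replicates 5 and 6 have no partner, so the numbers do not meet the bar for pairing in the 7c comparisons. The block gave differences of 0.36 (liver) and 0.094 (kidney) in the log2 ratio of Mt2 to Mt1, which without a prior count could not be computed in liver because 1 library had 0 counts of Mt2.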

Other observations

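Markers of blood and pancreas were measured beside the members. In livers the 5 blood markers summed to 393 to 1270 CPM after 7c and to 428 to 577 CPM after vehicle. In kidneys they summed to 471 to 2259 CPM and to 308 to 1309 CPM. Their median log2 fold change was 0.79 in liver, with 4 of 5 above 0, and 0.84 in kidney, with 5 of 5. None had an unadjusted p under 0.05 in the quasi-likelihood test. The 5 pancreas markers summed to 59.2 to 97.4 CPM in livers and to 75.8 to 182 CPM in kidneys, of which nearly all was Cela1.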
